A study of Mus musculus with 6 samples.

Results

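The peroxisome proliferator-activated receptors (PPARs), their retinoid X receptor (RXR) partners and the PGC1 coactivators were followed in inguinal white adipose tissue (iWAT) that lacked *Cebpa* in adipocytes. The 8 genes were chosen by symbol from the 36144 symbols of the gene table: *Pparg*, *Ppara*, *Ppard*, *Rxra*, *Rxrb*, *Rxrg*, *Ppargc1a* and *Ppargc1b*. All 8 passed the filter on low counts. The tissue came from 10-week-old female C57BL6/J mice under ad libitum feeding, and both inguinal depots of a mouse were combined after the lymph nodes were removed. All 6 mice carried *Cebpa* alleles flanked by loxP sites. The 3 Cebpa_fl/fl controls were AdipoQ-Cre-negative, and the 3 Cebpa_ASKO littermates carried AdipoQ-Cre, which acts in cells that express *Adipoq*, a gene switched on late in fat cell differentiation. The other cells of the depot therefore kept *Cebpa*, and each library was a mixture of cell types.

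PPARs are nuclear receptors for fatty acids and their derivatives. Each binds DNA as a pair with an RXR, at paired AGGTCA-like hexamers, and works with coactivators such as the PGC1 proteins. PPARγ is required for fat cells to form, and it and C/EBPα, the product of *Cebpa*, are known to maintain each other's expression in fat cells. *Pparg* has a widely expressed isoform 1 and an isoform 2 that is largely restricted to fat cells, made from a separate promoter and first exon.

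The sequence that sets isoform 2 apart is short. The GENCODE model of its transcript, Pparg-201 (ENSMUST00000000450.4), has 7 exons on the plus strand of chromosome 6 from 115422066 to 115490399 (GRCm38) and codes for 505 residues. The main isoform 1 transcript, Pparg-204 (ENSMUST00000203732.2), starts 59774 bases upstream at 115362292, has 8 exons and codes for 475 residues. The coding sequence of isoform 2 opens with 90 bases that are not coding in isoform 1, shown here with the start codon in capitals because these bases define the 30 additional residues.
Pparg isoform 2, 5′ end of the coding sequence: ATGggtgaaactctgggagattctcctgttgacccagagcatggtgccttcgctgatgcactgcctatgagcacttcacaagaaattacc

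Promoter windows of *Pparg* and *Rxrg* are shown next, from 250 bases before the RefSeq start site of each to 10 bases from it (GRCm38.p6, plus strand). Capitals mark matches to TTGCNNAA or its reverse complement TTNNGCAA, the core letters of a C/EBP binding site. The isoform 1 window is shown beside the isoform 2 window because the pair belong to 1 gene whose 2 isoforms differed in transcript level between the genotypes to unlike degrees. Promoter activity was not measured, and whether either promoter responded was not tested.
*Pparg* isoform 2 promoter, chr6:115421816-115422075: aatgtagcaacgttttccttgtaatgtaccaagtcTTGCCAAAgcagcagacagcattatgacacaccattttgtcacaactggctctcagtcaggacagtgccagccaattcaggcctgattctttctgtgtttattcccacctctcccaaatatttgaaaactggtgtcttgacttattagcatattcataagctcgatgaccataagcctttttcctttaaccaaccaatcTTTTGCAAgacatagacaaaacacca
*Pparg* isoform 1 promoter, chr6:115362099-115362358: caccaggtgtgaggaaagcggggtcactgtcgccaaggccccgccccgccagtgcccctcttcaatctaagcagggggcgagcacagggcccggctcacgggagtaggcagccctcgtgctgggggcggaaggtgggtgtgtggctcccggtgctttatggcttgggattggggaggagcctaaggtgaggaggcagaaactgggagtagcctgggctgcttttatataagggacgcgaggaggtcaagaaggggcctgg
*Rxrg* internal promoter, chr1:167618015-167618274: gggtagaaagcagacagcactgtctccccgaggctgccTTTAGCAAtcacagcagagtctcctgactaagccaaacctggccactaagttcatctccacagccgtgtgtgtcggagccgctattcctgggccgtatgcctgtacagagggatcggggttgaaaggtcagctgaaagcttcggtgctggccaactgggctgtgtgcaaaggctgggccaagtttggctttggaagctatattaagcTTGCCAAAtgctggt
RefSeq windows were found for 7 of the 8 members, 12 windows of 300 bases in all. The C/EBP letters were present in 2 of the 12, the *Pparg* isoform 2 window and the *Rxrg* internal window, each with 2 matches. *Rxra*, also lower in Cebpa_ASKO, had no match in either of its windows. Of 32851 promoter windows of that length, 10.8% held at least 1 match and 0.773% held at least 2. In the isoform 2 window the matches began 215 and 16 bases before the start site, and in the *Rxrg* window 212 and 5 bases before it. AGGTCA or its reverse complement TGACCT was in 4 of the 12 windows (16.3% of all windows): the *Pparg* isoform 1 window above, the *Pparg* window that begins at 115360894, the *Rxrg* internal window and the downstream *Rxra* window. A direct repeat of AGGTCA with 1 base between the copies (DR1), the spacing that PPAR and RXR pairs prefer, was in none of the 12 and in 0.0396% of all windows. CCAAT or its reverse complement was in 4 of the 12 windows (37.4% of all windows), including 2 matches in the isoform 2 window, and TATAAA or its reverse complement was in 1, the isoform 1 window shown (13.6% of all windows). No match overlapped a match of another motif. The RefSeq start site of the isoform 1 window shown, 115362349, lies downstream of the annotated start of Pparg-204, 115362292. The TATAAA and AGGTCA matches of that window began 29 and 9 bases before the RefSeq start site. Both therefore lie within the first exon of Pparg-204. The motifs were chosen after the expression values were seen, and the matches describe letters in these windows only.

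The libraries held 33141769 to 49477671 estimated read pairs. *Cebpa* fell in Cebpa_ASKO to 37.2 to 45.8 CPM (counts scaled to library size) from 448 to 498 CPM in Cebpa_fl/fl, or -3.55 as log2 fold change (edgeR, adjusted p = 0.000163, standard error 0.131). The fat cell markers that define the tissue were abundant, and their summed level was 47617 to 57495 CPM in Cebpa_fl/fl and 13738 to 15883 CPM in Cebpa_ASKO, with 11 of 15 lower by the test and none at 0. In whole tissue, fewer cells of a type and less RNA per cell cannot be told apart. Of 20 skeletal muscle markers, led by *Myh4* and *Acta1*, 14 were higher in Cebpa_ASKO, with summed levels of 744 to 1035 CPM in Cebpa_fl/fl and 2380 to 6832 CPM in Cebpa_ASKO. Summed markers of brown and beige fat cells, led by *Cidea* and *Ucp1*, were 1448, 206 and 518 CPM in Cebpa_fl/fl libraries 1, 2 and 3 and 877 to 1610 CPM in Cebpa_ASKO, with 1 of 12 lower (*Lhx8*). Lymphocyte markers, led by *Ighm* and *Cd79a*, stood at 540 CPM in Cebpa_fl/fl 1 and at 69.6 to 109 CPM in the other libraries, with 0 of 9 tested passing and 6 at an unadjusted p under 0.05. Mammary epithelial markers, led by *Krt19* and *Krt8*, were 853 to 1848 CPM in Cebpa_fl/fl and 2438 to 2543 CPM in Cebpa_ASKO, with 0 of 10 tested passing in edgeR and 8 at an unadjusted p under 0.05. Macrophage markers, led by *Lyz2* and *C1qa*, were 1192 to 3216 CPM and 1943 to 2666 CPM, and fibroblast and progenitor markers, led by *Col3a1* and *Dcn*, were 7022 to 12479 CPM and 8469 to 10483 CPM, with 0 of 11 and 0 of 10 passing and 0 and 0 at an unadjusted p under 0.05. Of 10 endothelial markers, led by *Pecam1* and *Cdh5*, 1 was lower (*Emcn*), with summed levels of 426 to 519 CPM and 325 to 434 CPM. Cebpa_fl/fl 2 stood apart, with 179 and 239 times the squared difference that counting alone gives from the other controls, against 67.0 between those. All 3 genes called below passed without Cebpa_fl/fl 1 and without Cebpa_fl/fl 2.

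Of the 8 genes, 3 fell in Cebpa_ASKO iWAT (*Pparg*, *Rxrg* and *Rxra*), none rose, and 5 did not pass the test. A gene passed at an adjusted p under 0.05 in edgeR's quasi-likelihood test over 16069 genes, of which 5.23% passed in either direction, 3.84% lower and 1.39% higher. The same 3 genes were those whose Cebpa_ASKO libraries all lay below all Cebpa_fl/fl libraries in CPM, a pattern seen in 13.2% of the genes tested, and the other 5 overlapped. Fat cell markers were lower and muscle markers higher in the same Cebpa_ASKO libraries, and the part of such shifts in cell make-up in the 3 falls was not tested. TPM, a level scaled to transcript length and library, put the genes on 1 scale. In Cebpa_fl/fl the order by mean TPM was *Pparg*, *Rxra*, *Rxrb*, *Rxrg*, *Ppard*, *Ppara*, *Ppargc1b* and *Ppargc1a*, and of these neighbours only *Ppara* and *Ppargc1b*, and *Ppargc1b* and *Ppargc1a*, had overlapping ranges. In Cebpa_ASKO *Rxrg* ranked below *Ppard*, and the ranges of *Rxra* and *Rxrb* overlapped. Among 49 nuclear receptors, *Pparg* had the highest mean TPM in both genotypes, *Rxra* went from rank 6 to rank 8, and *Rxrg* from rank 13 to rank 20.

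**Figure D1:**
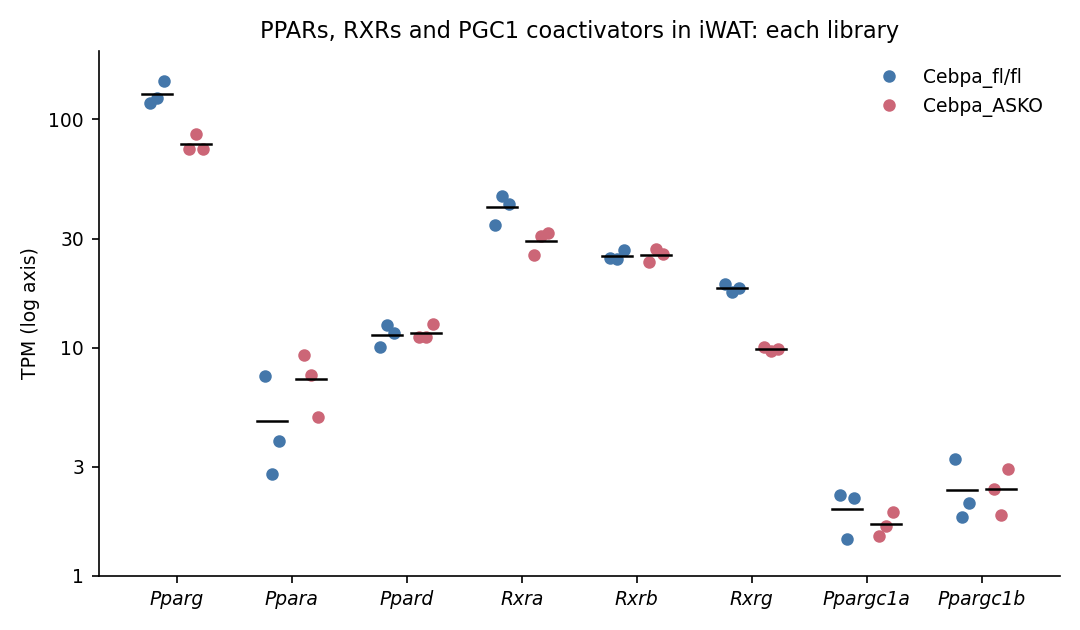
TPM of the 8 genes in each library on a log axis, Cebpa_fl/fl in blue and Cebpa_ASKO in red, with a bar at each mean of 3 libraries. *Pparg*, *Rxra* and *Rxrg* are the genes in which no red point reaches a blue one. *Pparg* lies at 118 to 147 TPM in the controls and 74.2 to 86.1 TPM in Cebpa_ASKO.

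*Pparg* (chromosome 6, 115360951 to 115490399) was the most abundant PPAR and fell to 58.3% of its control CPM. Its level was 118, 124 and 147 TPM in Cebpa_fl/fl and 74.3, 86.1 and 74.2 TPM in Cebpa_ASKO. The highest Cebpa_ASKO library stayed below the lowest control. The log2 fold change was -0.78 (standard error 0.113, 95% interval -1.05 to -0.51, adjusted p = 0.0125). Without Cebpa_ASKO 1 it was -0.80 with an adjusted p of 0.0700, and it passed with each of the other 5 libraries left out.

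The fall of *Pparg* lay mainly in isoform 2. Transcripts that carry the isoform 2 start, Pparg-201 alone, were 63.6, 63.4 and 78.5 TPM in Cebpa_fl/fl and 26.6, 26.4 and 17.5 TPM in Cebpa_ASKO. The genotypes were far apart, and the Cebpa_ASKO mean was 34.3% of the control mean. Isoform 1 transcripts together were 54.6, 60.9 and 67.5 TPM in Cebpa_fl/fl and 47.2, 59.4 and 56.3 TPM in Cebpa_ASKO. Their TPM ranges overlapped and the Cebpa_ASKO mean was 89.0% of the control mean (exact two-sided permutation p = 0.4). On CPM the main isoform 1 transcript, Pparg-204, lay below every control in each Cebpa_ASKO library. Its unadjusted p was 0.0372 and its adjusted p 0.427 (edgeR). Of the difference in mean *Pparg* TPM between the genotypes, isoform 2 made up 87.2%.

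The share of *Pparg* TPM in isoform 2 was 53.8%, 51.0% and 53.5% in Cebpa_fl/fl and 35.8%, 30.6% and 23.6% in Cebpa_ASKO. Every Cebpa_ASKO library was below every control, a difference of -22.7 percentage points (exact two-sided permutation p = 0.1, the smallest that 3 against 3 libraries can give, so this test could not pass 0.05). On TPM isoform 2 was the larger part of *Pparg* in each control library and the smaller part in each Cebpa_ASKO library. On estimated counts its share was 53.0%, 49.7% and 53.3% in Cebpa_fl/fl, so it was the smaller part in Cebpa_fl/fl 2. The ratio of isoform 2 to isoform 1 TPM was 1.12 ± 0.0700 in Cebpa_fl/fl and 0.4395 ± 0.126 in Cebpa_ASKO (SD, n = 3 each).

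The test on single transcripts used the same assignment of reads to isoforms as the shares above, so it is not a separate result. The uncertainty of that assignment is not part of the standard errors and intervals below. Pparg-201 had a log2 fold change of -1.62 (standard error 0.226, 95% interval -2.16 to -1.07, adjusted p = 0.0374 over 47600 transcripts, of which 0.964% passed, 0.861% lower and 0.103% higher). Pparg-204, the main isoform 1 transcript, had -0.29 (standard error 0.109, 95% interval -0.55 to -0.02, adjusted p = 0.427). Its 95% interval lay wholly above that of Pparg-201. Pparg-202, an isoform 1 transcript from a start 61115 bases upstream of the isoform 2 start, was at 3.74 to 7.22 TPM in all 6 libraries with a log2 fold change of 0.00 (adjusted p = 0.999). The call of Pparg-201 was kept with DESeq2 (adjusted p = 1.28e-08, where 2.51% of transcripts were called lower) and was lost with 5 of the 6 libraries left out, where its log2 fold change stayed at -1.80 to -1.54. It passed without Cebpa_ASKO 3, at -1.41. Only 132 of the 1767 bases of Pparg-201 lie outside Pparg-204, and 191 of the 1826 bases of Pparg-204 lie outside Pparg-201, so the authors' assignment of reads to the isoforms rested on those bases and on the exon junctions beside them.

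**Figure D2:**
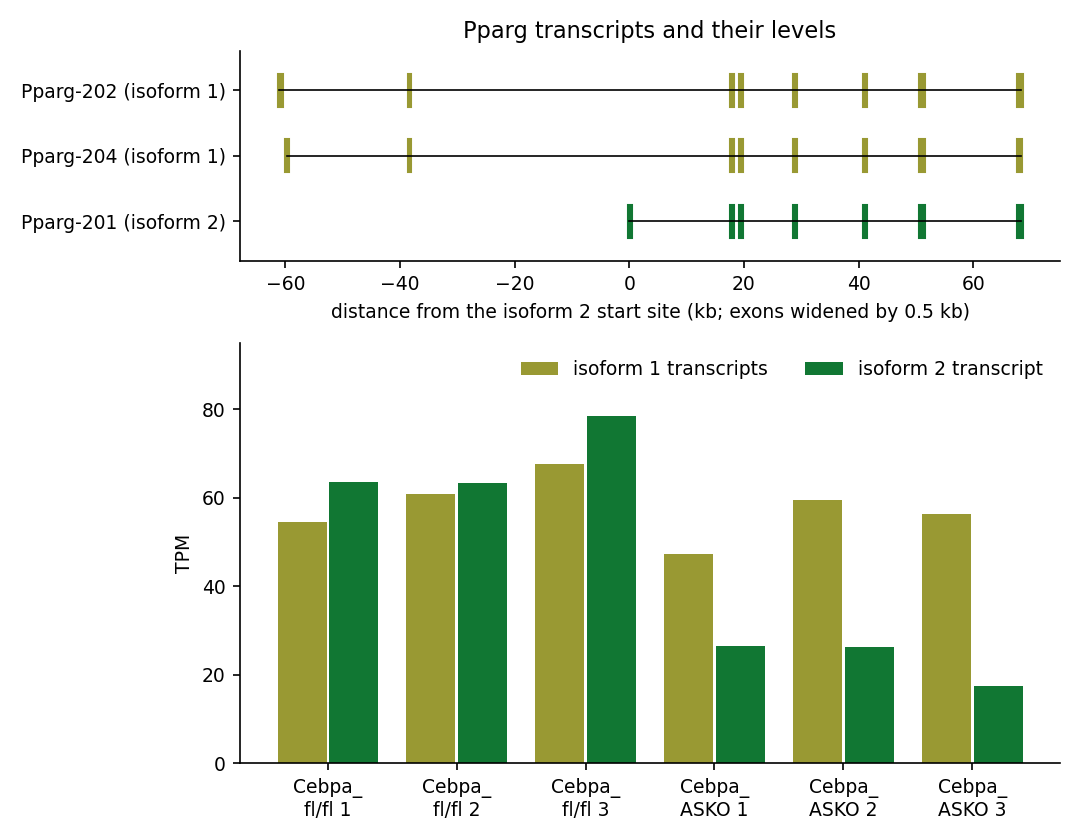
Above, exons of 3 *Pparg* transcripts by distance in kb from the isoform 2 start site, drawn 0.5 kb wider than they are; below, TPM of the isoform 1 transcripts together and of the isoform 2 transcript in each library. The isoform 2 bars are 63.4 to 78.5 TPM in Cebpa_fl/fl and 17.5 to 26.6 TPM in Cebpa_ASKO, while the isoform 1 bars overlap at 47.2 to 67.5 TPM.

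*Ppara* (chromosome 15, 85734983 to 85802819), the PPAR best known for fatty acid oxidation in liver and brown fat, was low and varied most among the controls. It was 7.53, 2.78 and 3.91 TPM in Cebpa_fl/fl and 9.23, 7.59 and 4.98 TPM in Cebpa_ASKO. The genotypes overlapped, and the highest control was Cebpa_fl/fl 1, the control with the most brown and beige marker RNA. The log2 fold change was 0.44 (95% interval -0.62 to 1.5, adjusted p = 0.665), an interval that spans both a fall and a rise. The part of brown and beige fat cells in its spread was not tested. Of its transcripts Ppara-202 held 66.5% of the gene's TPM in Cebpa_fl/fl and 62.5% in Cebpa_ASKO. Ppara-201, Ppara-203, Ppara-204 and Ppara-206 made up the rest of the named transcripts, and Ppara-201 was listed at 0 in Cebpa_fl/fl 2 and 3.

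*Ppard* (chromosome 17, 28232700 to 28301474), the broadly expressed PPAR, was 10.0, 12.5 and 11.6 TPM in Cebpa_fl/fl and 11.1, 11.1 and 12.7 TPM in Cebpa_ASKO. The libraries of both genotypes were interleaved. Its log2 fold change was -0.04, with a 95% interval of -0.25 to 0.18 (adjusted p = 0.881), and the sign turned under other scalings. Ppard-201 carried 92.2% of the gene's TPM in Cebpa_fl/fl and 89.3% in Cebpa_ASKO, and the retained-intron models Ppard-203 and Ppard-208 carried a few percent each.

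The make-up of PPAR RNA differed between the genotypes in these libraries. Summed PPAR TPM was 146 ± 14.3 in Cebpa_fl/fl and 97.1 ± 6.82 in Cebpa_ASKO (SD, n = 3 each), 66.5% of the control mean. *Pparg* made up 88.9% ± 1.69 of it in Cebpa_fl/fl and 80.5% ± 1.84 in Cebpa_ASKO, lower in 3 of 3 libraries. *Ppard* made up 7.83% ± 0.974 and 12.03% ± 1.62, higher in 3 of 3 libraries. *Ppara* made up 3.31% ± 1.94 and 7.47% ± 2.17, and its ranges overlapped. The exact two-sided permutation p was 0.1 for *Pparg* and *Ppard* and 0.2 for *Ppara*, and 0.2 for *Pparg* and *Ppard* and 0.32 for *Ppara* after adjustment over the 8 genes compared, where none could pass 0.05. On CPM, which is not per length, the *Ppara* share went from 4.67% to 9.46% and its ranges did not overlap.

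Among the RXRs, the obligate partners of the PPARs, 2 of 3 fell. *Rxrg* (chromosome 1, 167598384 to 167639623), the RXR with the narrowest tissue range, known mainly from muscle and brain, was 19.0, 17.4 and 18.2 TPM in Cebpa_fl/fl and 10.1, 9.66 and 9.87 TPM in Cebpa_ASKO. The values lay close together within each genotype and well apart between them. Its log2 fold change was -0.93 (standard error 0.120, 95% interval -1.21 to -0.64, adjusted p = 0.00835), the largest fall of the 8 genes in this fit. It passed with each library left out in turn, at -1.01 to -0.85. Skeletal muscle markers, which moved the other way, were 2380 CPM or more in each Cebpa_ASKO library. With the skeletal muscle share of counts as a covariate the log2 fold change of *Rxrg* was -0.75 and did not pass (adjusted p = 0.911). In that fit 0 genes passed, *Cebpa* included, and 942 had an unadjusted p under 0.05 (edgeR), since the muscle share did not overlap between the genotypes and its effect and that of genotype cannot be told apart.

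The authors' assignment of reads placed 88.7% to 98.3% of *Rxrg* TPM in Rxrg-202. The annotated start of Rxrg-202 lies 44 bases downstream of the RefSeq start site of the internal window, past the end of the stretch shown above. Of the 1630 bases of Rxrg-202, 187 lie outside Rxrg-201, and 667 of the 2110 bases of Rxrg-201 lie outside Rxrg-202. The split therefore rests on those bases and on splice junctions. Rxrg-202 (ENSMUST00000111380.1), on the plus strand of chromosome 1 from 167618309 to 167639621, begins 19925 bases downstream of Rxrg-201 and codes for 340 residues, against 463 for Rxrg-201. Rxrg-202 was 18.5, 16.96 and 17.9 TPM in Cebpa_fl/fl and 9.79, 8.57 and 9.46 TPM in Cebpa_ASKO. No Cebpa_ASKO library reached a control. The log2 fold change was -1.03 (standard error 0.152, 95% interval -1.39 to -0.66, adjusted p = 0.0446), and the call was kept with DESeq2 (adjusted p = 6.25e-06) and lost with each library left out, at -1.15 to -0.94. Rxrg-201 was 0.300 to 1.09 TPM over all 6 libraries, with a log2 fold change of 0.40 (95% interval -0.93 to 1.73, adjusted p = 0.905). Its interval and that of Rxrg-202 overlapped, unlike those of Pparg-201 and Pparg-204. The Rxrg-202 share of *Rxrg* TPM was 97.6%, 97.3% and 98.3% in Cebpa_fl/fl and 97.0%, 88.7% and 95.8% in Cebpa_ASKO. All Cebpa_ASKO shares lay below all control shares (exact two-sided permutation p = 0.1). The gap was narrow, 97.0% in Cebpa_ASKO 1 against 97.3% in Cebpa_fl/fl 2, unlike that of the isoform 2 share of *Pparg*. The lowest share, 88.7% in Cebpa_ASKO 2, rested on Rxrg-201 at 1.09 TPM.

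*Rxra* (chromosome 2, 27676440 to 27762957), the most abundant RXR, was 34.6, 46.4 and 42.6 TPM in Cebpa_fl/fl and 25.4, 30.8 and 31.8 TPM in Cebpa_ASKO. The groups did not overlap, but the gap between them was small. The log2 fold change was -0.54 (standard error 0.098, 95% interval -0.78 to -0.31, adjusted p = 0.0295). The call was lost when Cebpa_fl/fl 3 or any of the Cebpa_ASKO libraries was left out (adjusted p = 0.0643 to 0.138), with the log2 fold change at -0.58 to -0.51. It was also lost on total counts without scaling (-0.49, adjusted p = 0.0725) and with limma on TPM (adjusted p = 0.136 to 0.229), and was kept with DESeq2 (-0.56, adjusted p = 4.34e-05). Rxra-201, which held 99.3% of the gene's TPM in Cebpa_fl/fl and 99.9% in Cebpa_ASKO, had a log2 fold change of -0.57 in the transcript test (adjusted p = 0.0914).

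*Rxrb* (chromosome 17, 34031812 to 34038399), the broadly expressed RXR, was 24.8, 24.4 and 26.7 TPM in Cebpa_fl/fl and 23.6, 27.0 and 25.7 TPM in Cebpa_ASKO. The groups coincided, with a log2 fold change of -0.04 and a 95% interval of -0.24 to 0.16 (adjusted p = 0.865), whose sign also turned under other scalings. Its RNA was spread over 7 named transcripts, of which Rxrb-202, Rxrb-201 and Rxrb-207 held the largest shares and none passed the test. Rxrb-209, a retained-intron model, was at 0.645 to 1.85 TPM in Cebpa_fl/fl and at 0 to 0.576 TPM in Cebpa_ASKO (adjusted p = 0.566). Rxrb-203, Rxrb-204 and Rxrb-210 overlapped between the genotypes.

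With *Rxrb* level and the other RXRs lower, the balance of the RXRs differed too. Summed RXR TPM was 84.7 ± 5.50 in Cebpa_fl/fl and 64.7 ± 4.75 in Cebpa_ASKO (SD, n = 3 each). *Rxrb* went from 29.9% ± 2.06 to 39.4% ± 1.07 of it, above every control in 3 of 3 libraries, and *Rxrg* went from 21.6% ± 2.34 to 15.3% ± 1.49, below every control in 3 of 3. *Rxra* held 48.5% ± 4.24 and 45.3% ± 2.12, with overlapping ranges. The exact two-sided permutation p was 0.1 for *Rxrb* and *Rxrg* and 0.4 for *Rxra*, or 0.2 and 0.5 after the same adjustment. On CPM the *Rxrg* share went from 9.93% to 7.18%, a difference of -2.75 percentage points against -6.27 on TPM.

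The PGC1 coactivators, which raise mitochondrial and oxidative genes with PPARs and other receptors, were the least abundant of the 8. *Ppargc1a* (chromosome 5, 51454250 to 51567726) was 2.25, 1.45 and 2.19 TPM in Cebpa_fl/fl and 1.49, 1.66 and 1.91 TPM in Cebpa_ASKO. The lowest value was a control, Cebpa_fl/fl 2. Its log2 fold change was -0.25 (95% interval -0.69 to 0.19, adjusted p = 0.528). *Ppargc1b* was 3.23, 1.81 and 2.08 TPM in Cebpa_fl/fl and 2.39, 1.84 and 2.95 TPM in Cebpa_ASKO. Its extremes were both controls, and the log2 fold change was -0.10 (95% interval -0.82 to 0.63, adjusted p = 0.911), whose sign turned with limma on TPM. The control that was highest in both genes, Cebpa_fl/fl 1, was also highest in brown and beige markers, and Cebpa_fl/fl 2 was lowest in all 3. That relation was not tested. *Ppargc1a* made up 45.5% ± 5.20 of the summed PGC1 TPM in Cebpa_fl/fl and 41.7% ± 5.001 in Cebpa_ASKO, and *Ppargc1b* the rest (exact permutation p = 0.5). Ppargc1a-203 held 87.5% of *Ppargc1a* TPM in Cebpa_fl/fl and 92.9% in Cebpa_ASKO, and Ppargc1b-202 held 98.0% and 98.2% of *Ppargc1b*. The other named transcripts, Ppargc1a-201, Ppargc1a-204, Ppargc1b-201 and Ppargc1b-203, were listed at 0 in 1 or more libraries and were not tested.

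**Figure D3:**
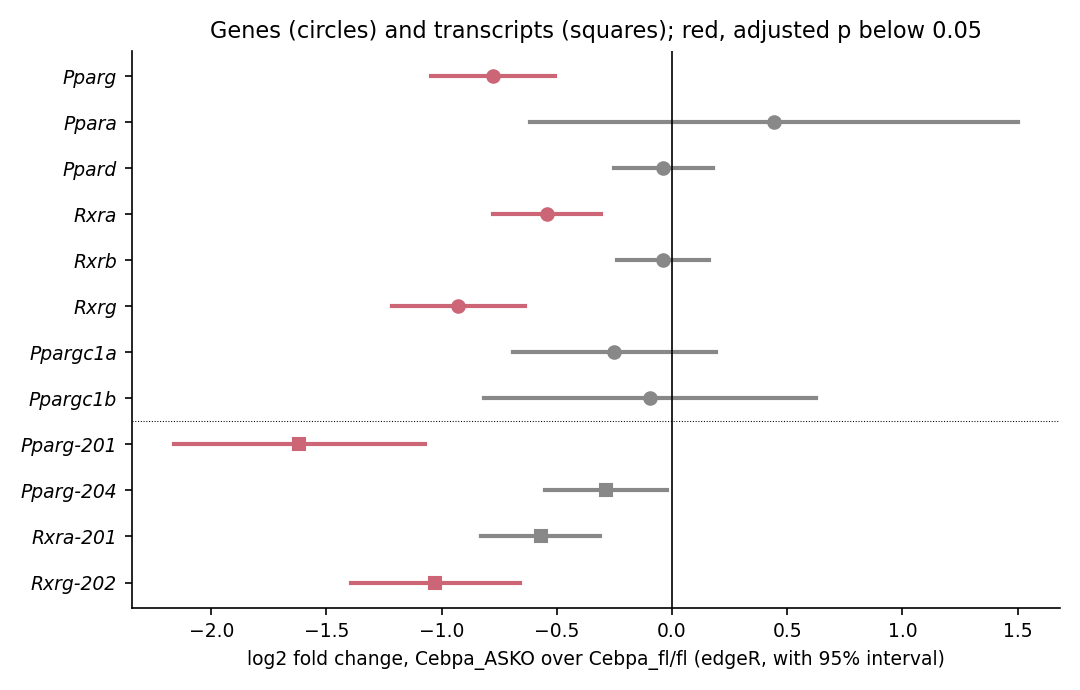
Log2 fold change of the 8 genes and of 4 transcripts, Cebpa_ASKO over Cebpa_fl/fl, with 95% intervals from edgeR; red marks an adjusted p below 0.05. Pparg-201 (isoform 2) lies at -1.62 and Pparg-204 (isoform 1) at -0.29, on either side of the whole *Pparg* gene at -0.78.

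The genes around the receptors were read from lists made with earlier results of these data known. Over all 16069 genes the median log2 fold change was 0.02. Of 30 known PPARG targets of fat cells, 16 were lower and none higher, with a median log2 fold change of -1.18. The 16 made up 53.3% of the list, against 3.84% of all genes called lower. By size the first 6 were *Adipoq* (-2.93), the hormone adiponectin, *Slc27a1* (-2.52), a fatty acid transporter, *Cidec* (-2.49), a lipid droplet protein, *Acvr1c* (-2.49), an activin receptor, *Fabp5* (-2.36), a fatty acid carrier, and *Klb* (-2.27), a coreceptor for fibroblast growth factors. All 6 lay below every control in each Cebpa_ASKO library, a pattern seen in 13.2% of the genes tested, and each had a larger fall than *Pparg*. They were picked as the largest changes among the called genes, so neither point is a separate result. The remaining 14 did not pass, among them *Fabp4* (-0.86, adjusted p = 0.107) and *Cd36* (-0.81, adjusted p = 0.0577), chosen after their values were seen. Of these 14, 6 had a positive log2 fold change, the highest being *Cidea* (2.00, adjusted p = 0.166), also a brown and beige fat cell marker, and *Olr1* (1.80, adjusted p = 0.101), both above every control in each Cebpa_ASKO library. The list shares *Adipoq*, *Lpl*, *Cidec* and other genes with the fat cell markers above.

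Targets of the other PPARs did not move 1 way. Of 26 tested genes of fatty acid oxidation and related PPARA and PPARD targets, 2 were lower and 1 was higher, and the median was 0.16. The 3 called made up 11.5% of those tested, against 5.23% of all genes. *Acaa1b* (-1.33) and *Pex11a* (-0.85), both of peroxisomes, were lower. *Acaa2*, the last enzyme of mitochondrial fatty acid oxidation, was higher (1.95, adjusted p = 0.0460). *Acaa2* was 375, 137 and 199.9 CPM in Cebpa_fl/fl and 1182, 916 and 647 CPM in Cebpa_ASKO, again with Cebpa_fl/fl 1 the highest control. The 3 calls of this list were sensitive to single libraries: 0 were made without Cebpa_ASKO 1 or without Cebpa_ASKO 2 (4 at an unadjusted p under 0.05 in each, edgeR), 1 without Cebpa_fl/fl 1 or without Cebpa_fl/fl 3, and 5 with DESeq2. *Acaa2* passed in 1 of the 6 fits with a library left out, and *Acaa1b* and *Pex11a* in 2 each. Of 30 PGC1 partners and targets, 1 was higher (3.33%, against 1.39% of all genes) and none lower, with a median of 0.18. That gene was *Fndc5*, the irisin precursor, also made by skeletal muscle, at 4.13 to 6.30 CPM in Cebpa_fl/fl and 14.6 to 15.0 CPM in Cebpa_ASKO. Summed muscle markers were higher in the same libraries, at 2380 to 6832 CPM, and their part in this difference was not tested.

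The median log2 fold change of the 38 nuclear receptors tested was -0.02. Of these, 6 were lower (15.8%, against 3.84% of all genes) and none higher. Beside *Pparg*, *Rxrg* and *Rxra* these were *Nr5a2* (-1.49), which encodes LRH-1, *Nr1h3* (-1.31), the oxysterol receptor LXRα, and *Esr1* (-0.64), the estrogen receptor. The number called was 2 without Cebpa_ASKO 1, 3 without Cebpa_ASKO 2 or without Cebpa_fl/fl 3, and 11 with DESeq2. *Nr1h3* passed in 6 of the 6 fits with a library left out, *Nr5a2* in 2 and *Esr1* in 1. *Nr1h3* was also the single gene called among 11 tested partners that RXRs share (9.09%, against 3.84% of all genes called lower). It was at 73.3 to 79.8 CPM in Cebpa_fl/fl and 30.1 to 32.2 CPM in Cebpa_ASKO. Of 14 genes of retinoid supply, which provides the RXR and RAR ligands, 1 was lower, *Rbp4* (-3.02), the retinol carrier secreted by liver and fat, and the median was -0.17. Of 20 coactivators and corepressors, 1 was lower, *Nrip1* (-0.98), a corepressor of nuclear receptors also known as RIP140, and the median was 0.02. The shares called, 7.14% for retinoid supply and 5% for the coactivators and corepressors, were near the 5.23% of all genes tested. In the same fit 6 and 4 genes of these lists had an unadjusted p under 0.05 (edgeR), against 3185 of all 16069 genes. DESeq2 called 4 and 2 of them, and 1796 genes in all against 840 with edgeR. Of 4 fatty acid binding proteins tested, which carry ligands to PPARs, *Fabp5* alone was lower (25% of the 4), and the median was -0.49. Of 20 upstream regulators of *Pparg*, 3 were lower (15%, against 3.84% of all genes), while the median was 0.15. These were *Cebpa* itself, the deleted gene, whose fall was set by the design, *Klf15* (-1.88) and *Zfp423* (-0.55). *Klf15* is a Krüppel-like factor that promotes fat cell differentiation, and *Zfp423* a factor of fat cell commitment. The count was 2 in place of 1 for retinoid supply without Cebpa_fl/fl 2 or without Cebpa_fl/fl 3, and for the coactivators and the fatty acid binding proteins without Cebpa_fl/fl 1. *Zfp423* lost its call with each library left out (adjusted p = 0.0608 to 0.113, edgeR).

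**Figure D4:**
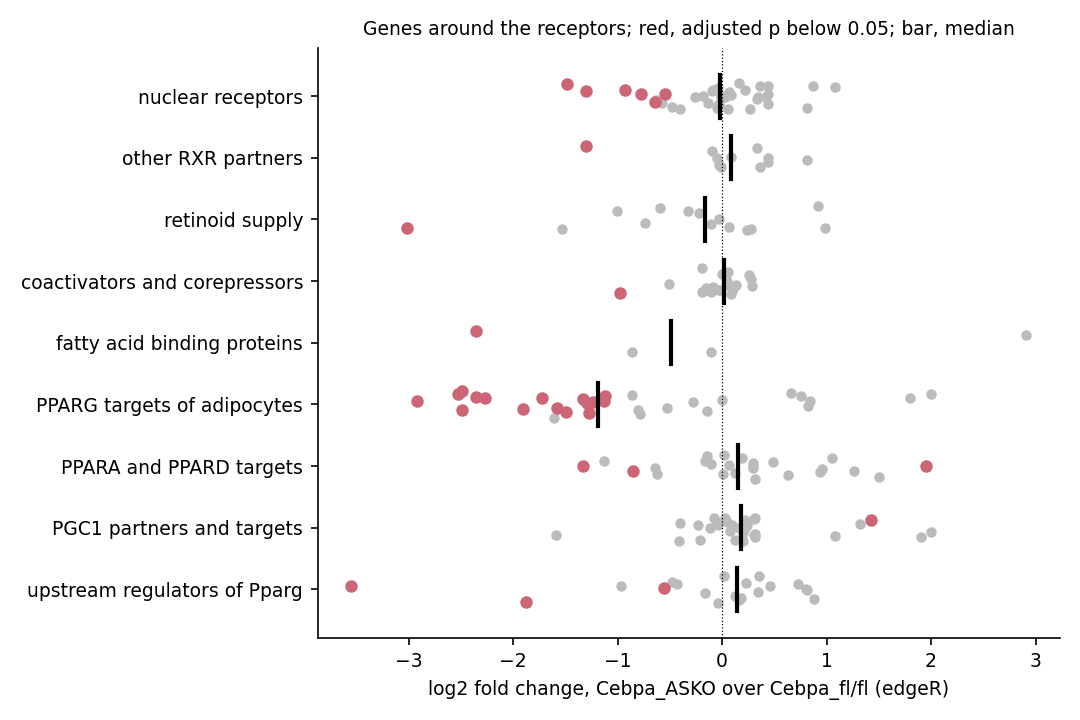
Log2 fold change of each tested gene in 9 lists, Cebpa_ASKO over Cebpa_fl/fl; red points passed at an adjusted p below 0.05 and the bar is the median. The PPARG target list has its median at -1.18, and the medians of the other lists lie between -0.49 and 0.18.

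The genes whose pattern was most like *Pparg* were ranked by Pearson's r of log2(TPM + 1) over the 6 libraries among 7725 genes with a mean of at least 10 TPM. *Fbxl4* (r = 0.997), *Mccc1* (0.997), *C1qtnf12* (0.995), *Ctsd* (0.994) and *Acbd4* (0.993) came first. The libraries form 2 genotypes, so any gene that falls evenly scores high, and 176 genes reached 0.95. Among the 8 genes, *Rxrg* had r = 0.937 and *Rxra* 0.864, while *Rxrb* had 0.192 and *Ppard* -0.11. *Cebpa* had 0.969. The mean TPM of *Fbxl4*, a mitochondrial F-box protein, was 56.3% of the control mean in Cebpa_ASKO, close to the 60.2% of *Pparg*.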

How the data were processed

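Whole iWAT RNA of 6 mice was enriched for poly-A RNA and sequenced in pairs. Per the labels the authors quantified reads with kallisto 0.44.0, with GRCm38.p6 and GRCh38.p12 named as builds, and deposited estimated counts, effective lengths and TPM per transcript, with a gene TPM table. Here 116816 of 118489 transcripts (98.6%, holding at least 99.5% of counts) were matched to GENCODE M21, estimated counts were summed by symbol and rounded, and genes were tested with edgeR 4.0.16 (quasi-likelihood, TMM scaling, filterByExpr, Benjamini-Hochberg adjustment). Transcripts were tested likewise. Isoform and group shares were compared by exact two-sided permutation over 3 against 3 libraries, whose smallest p is 0.1. DESeq2 1.42.0 and limma 3.58.1 on log2(TPM + 1) or log2(TPM + 0.1), other filters and scalings, a transcript length offset, a replicate block, a muscle covariate and each library left out were alternatives. The procedure was tested on simulated data. CPM used TMM-scaled library sizes.

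The 8 genes and the lists were chosen with earlier results of these data known. Named are the 8 genes and their transcripts with at least 5% of a gene's TPM in any library, *Cebpa*, up to 6 called genes per list by size of change, the 5 genes most like *Pparg* and 2 markers per cell type. A transcript belonged to isoform 2 if its coding sequence began in the isoform 2 exon. The counting makes no statement on strand, and reads shared by transcripts were split by the authors' software, so transcript values are less certain than gene values. Replicates are separate mice. Promoter windows are from RefSeq (GRCm38.p6), coding bases from GENCODE. 0 columns of other samples were present. A further gene of the PPARA and PPARD target list is not reported here and was left out of its counts.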

Additional observations from a re-analysis of the deposited data

How the results depend on the processing

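Of the 8 genes, 3 passed in the reported fit and in 14 of 17 alternatives the count stayed at 2 or 3. It was 1 with the replicate block, 0 with the muscle covariate (1 at an unadjusted p under 0.05, edgeR), and 1 to 3 with a library left out. The total over all genes was 840, 1796 with DESeq2, 359 with limma without a filter, 370 with the replicate block, 0 with the covariate (942 at an unadjusted p under 0.05, edgeR) and 311 to 922 with a library left out. *Pparg* lost its call with the replicate block (-0.78, adjusted p = 0.0821), the covariate (-0.999) and without Cebpa_ASKO 1, ranging from -0.85 to -0.70 with a library left out. *Rxra* lost it on total counts (-0.49), with limma on log2(TPM + 1) with or without a filter (-0.47) and on log2(TPM + 0.1) (-0.48), with the replicate block (-0.54, adjusted p = 0.0847), the covariate (-0.67) and 4 left-out libraries (range -0.62 to -0.50). *Rxrg* lost it with the covariate alone (-0.75).

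Signs turned only in genes that did not pass. *Ppard* was 0.0090 on total counts, 0.030 with limma on log2(TPM + 1) with or without a filter and 0.033 on log2(TPM + 0.1), 0.15 with the covariate and -0.094 to 0.0085 with a library left out. *Rxrb* was 0.0091 on total counts, 0.0082, 0.0084 and 0.0082 with the same limma fits, and -0.093 to 0.0045 with a library left out. *Ppargc1a* was 0.11 with the covariate. *Ppargc1b* was 0.016, 0.026 and 0.016 with the limma fits, 1.18 with the covariate and -0.31 to 0.25 with a library left out. The cause was not tested. Member transcripts called numbered 2, 3 with DESeq2, 0 with the replicate block (3 at an unadjusted p under 0.05, edgeR) and 0 to 1 with a library left out. The isoform 2 share difference was -25.6 to -19.5 percentage points with a library left out, -22.6 on estimated counts and -22.8 over complete coding sequences. A ratio of isoforms on estimated counts, an alternative chosen after seeing the data, had a log2 difference of -1.40 against -1.39 on TPM.

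Whether equal replicate numbers pair the libraries is not known. Deviations of same-numbered libraries correlated at 0.066, 0.028 and -0.20, and those of differently numbered libraries at -0.18 to 0.15. Deviations from means of 3 libraries cannot exclude a pairing. *Ppara*, *Ppargc1a* and *Ppargc1b* had 196 to 746 estimated counts a library.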

Other observations

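Some receptors outside the 8 genes stood high in iWAT and did not differ by the test. *Thra*, a thyroid hormone receptor, ranked 2 of 49 nuclear receptors by TPM in both genotypes (61.8 and 63.8 TPM, log2 fold change -0.01, adjusted p = 0.980, edgeR). *Nr1h2*, the broadly expressed oxysterol receptor LXRβ, was 49.3 TPM in Cebpa_fl/fl and 55.4 TPM in Cebpa_ASKO (0.08, adjusted p = 0.646), while its relative *Nr1h3* went from rank 3 to rank 11. Of the 49 receptors, 34 had a mean of at least 1 TPM in Cebpa_fl/fl. These receptors were named after their values were seen.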
